A study of Mus musculus with 40 samples.

Results

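The genes of axonal transport and the microtubule were followed by class in RNA-seq of mouse cortex after repeated head impact, with or without memantine. They were taken as every transcript row whose mm10 RefSeq symbol starts with Kif, Klc, Dync, Dctn, Tuba, Tubb or Nef, or is Map1a, Map1b, Map2, Map4 or Map6. This gave 79 transcripts of 50 genes, out of 6831 transcripts of 5867 symbols. The samples were cortex of male C57BL/6 mice aged 12 weeks, taken 24 h after high-frequency head impact (HF-HI) or a sham procedure. Each procedure was preceded by an injection of memantine, an NMDA receptor blocker, or of saline 1 h earlier. The 4 groups of 10 libraries each were saline sham (saline, sham procedure), saline HF-HI (saline, impact), memantine sham (memantine, sham procedure) and memantine HF-HI (memantine, impact). No group was without an injection, and all groups were of the same strain, sex and age. The labels number the libraries but do not say that each is a separate animal, so p-values measure the spread between these samples. The series' design text counts 4 samples in each group, whereas labels and table hold 10, and the labels were followed, so how many mice stand behind each 10 libraries is not settled.

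Microtubules are polymers of alpha- and beta-tubulin, and in axons they are the tracks on which cargo moves. Kinesin motors carry most cargo outward, light chains and adaptors link kinesins to cargo, and dynein with its cofactor dynactin carries cargo back to the cell body. Neurofilaments set the calibre of large axons, and microtubule-associated proteins stabilise and space the tubules. Whole cortex was sequenced, so fewer cells of a type and less RNA per cell cannot be told apart. Of the 7 cortical excitatory neuron markers, 6 were in the table and Fezf2 was not. The table holds abundant transcripts only, with a lowest mean of 549 normalised counts, so a gene outside it was not analysed here.

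The sequences of the beta-tubulins are shown first, because some of these genes share reads. The last 60 coding bases hold most of the codons of the tail by which beta-tubulin isotypes differ, and the neighbouring genes Tubb2a (chr13:34074278-34078008) and Tubb2b (chr13:34127008-34130354) differ at only 3 of them. Capitals mark those 3 bases, each the last base of its codon, and none of them changes the encoded residue. The sequences are from the GRCm38 assembly (mm10), each within 1 exon and read from the minus strand, at chr13:34074468-34074527 for Tubb2a and chr13:34127471-34127530 for Tubb2b.
Tubb2a: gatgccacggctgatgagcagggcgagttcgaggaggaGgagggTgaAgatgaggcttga
Tubb2b: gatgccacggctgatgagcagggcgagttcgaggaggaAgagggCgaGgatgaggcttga

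The same stretch of Tubb5 (chr17:35834982-35835041, minus strand) and of the neuron-specific Tubb3 (chr8:123421623-123421682, plus strand) shows how far other isotypes differ.
Tubb5: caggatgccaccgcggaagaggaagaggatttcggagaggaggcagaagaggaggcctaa
Tubb3: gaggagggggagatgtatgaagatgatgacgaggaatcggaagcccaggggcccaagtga

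Of the stretches of 100 bases in the Tubb2a transcript, 35.9% also occur in Tubb2b, and 26.1% of those in Tubb2b also occur in Tubb2a. A single read from such a stretch cannot be assigned to either gene by its own sequence. Reads were paired per the study's methods, so a mate from an unshared stretch could still assign the pair. No stretch of that length in Tubb3, Tubb4a, Tubb5 or Tuba4a occurs in another gene, whereas 65.1% of those in Tuba1a and 69.5% of those in Tuba1b do. In Tubb4b, 27.4% are shared with the pseudogene Tubb4b-ps1. Counts of Tubb2a, Tubb2b, Tubb4b, Tuba1a, Tuba1b and Tuba1c are therefore uncertain in how they divide reads between copies.

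Every beta-tubulin mRNA also opens with the codons for a short amino-terminal peptide, which is read on the ribosome when cells adjust tubulin mRNA to the pool of free tubulin. The first 30 coding bases are shown for the 3 beta-tubulins lower in saline HF-HI at an unadjusted p under 0.05. Those 4 codons are in capitals. The stretches lie at chr13:34077900-34077929, chr13:34130204-34130233 and chr17:35838024-35838053, all on the minus strand.
Tubb2a: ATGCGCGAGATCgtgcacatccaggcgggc
Tubb2b: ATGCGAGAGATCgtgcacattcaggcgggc
Tubb5: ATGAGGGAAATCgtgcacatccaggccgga

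Levels between genes were compared as normalised counts per kb of the longest matched transcript model. Kif5a, a neuronal kinesin-1 heavy chain, stood highest with 7608 ± 522 counts per kb in saline sham (SD, n = 10). Map2, the main dendritic microtubule-associated protein, followed with 6766 ± 265. Kif5c at 4259 ± 112 and Tuba1a at 4321 ± 326 came next and did not differ beyond their spread. Kif1a, the carrier of synaptic vesicle precursors, stood at 3847 ± 173, Klc1, a kinesin-1 light chain, at 3688 ± 164, and Map1b at 3654 ± 116, again within their spread. The lowest were Kif13a at 157 ± 12.5 and Kif16b at 133 ± 6.67, both endosomal kinesins.

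**Figure D1:**
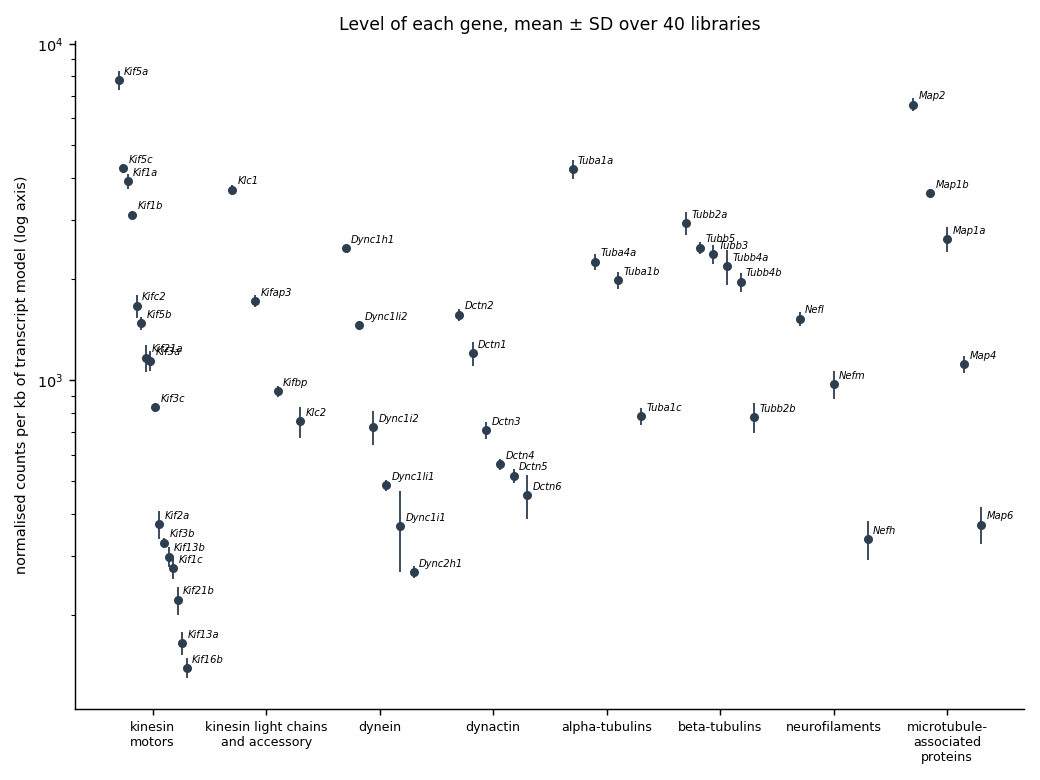
Normalised counts per kb of transcript model on a log axis for 50 genes in 8 classes, as the mean and SD over all 40 libraries. Kif5a and Map2 stand highest and Kif16b lowest, and Dync1i1 has the widest bar of the dynein genes.

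Within the other classes, the dynein heavy chain Dync1h1 led with 2431 ± 49.2 counts per kb, and Dctn2, the dynactin subunit dynamitin, with 1562 ± 73.5. Among the beta-tubulins, Tubb2a made up 24.0 ± 1.13% of the class per kb in saline sham and Tubb2b 6.45 ± 0.52%. The neurofilament light gene Nefl stood at 1520 ± 64.1 counts per kb, above Nefm at 948 ± 78.9 and Nefh at 328 ± 28.7. Summed over the 16 motor genes, kinesin motors held 31.8 ± 1.05% of the members' per-kb total in saline sham and 32.5 ± 0.70% in saline HF-HI. The 6 beta-tubulins held 15.3 ± 0.66% and 14.7 ± 0.67%.

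The first comparison asked what impact did under saline. Genes are named here at an unadjusted p under 0.05 from limma on the deposited values, with Benjamini-Hochberg adjustment over all 6831 transcripts beside it. By this measure 12 of 79 member transcripts differed in saline HF-HI against saline sham, which is 15.2% against 9.53% of all transcripts tested. Of these 6 were higher and 6 lower, beside 4.58% and 4.95% of all transcripts. No member passed an adjusted p of 0.1, which 0.205% of all transcripts did, and the smallest adjusted p was 0.108. Of the 50 gene sums 10 passed at an unadjusted p under 0.05, beside 10.7% of all symbols. Folds are given as differences of mean log2(count + 1) with their SE, and changes of means in percent.

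Under saline, 3 of the 6 beta-tubulins were lower with impact at an unadjusted p under 0.05, beside 4.95% of all transcripts. All 6 had a negative difference, beside 3419 of 6831 transcripts. The class median was a log2 difference of -0.04, beside 0.00 over all transcripts. Tubb2b ran from 1517 through a median of 1856 to 2056 normalised counts in saline sham and from 1369 through 1547 to 1832 in saline HF-HI. The groups overlapped, but 9 of 10 saline HF-HI libraries lay below the saline sham mean. Its mean fell by 12.95%, a log2 difference of -0.20 ± 0.06 (p = 0.00202, adjusted p = 0.250, permutation p = 0.00993). Tubb2a ran from 4312 through 4994 to 5816 counts in saline sham and from 4186 through 4423 to 5157 in saline HF-HI. Here 8 of 10 impact libraries were below the sham mean. The mean fell by 8.40% (log2 difference -0.12 ± 0.05, p = 0.00985, adjusted p = 0.370, permutation p = 0.0364).

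Because Tubb2a and Tubb2b share reads, their counts were also summed, a choice made after the values were seen. The sum ran from 6086 through 6873 to 7872 counts in saline sham and from 5677 through 5980 to 6988 in saline HF-HI. Its mean was 6785 ± 652 in saline sham and 6132 ± 465 in saline HF-HI. In memantine sham it was 6367 ± 348 and in memantine HF-HI 6336 ± 373, both between the saline means. No test was run on the sum. The separate sizes of the Tubb2a and Tubb2b falls rest on how shared reads were divided. Tubb5, the broadly expressed beta-tubulin with no shared stretch, ran from 6239 through 6707 to 7158 counts in saline sham and from 6028 through 6407 to 6841 in saline HF-HI. It fell by 3.92% (p = 0.0251, adjusted p = 0.457, permutation p = 0.0437), with 8 of 10 libraries below the sham mean. The Tubb5 p was 0.0646 without saline sham replicate 2, 0.0507 without saline sham replicate 5. Leaving out saline HF-HI replicate 3 gave a p of 0.0626, and quantile normalisation also ended the call (p = 0.0739).

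The other beta-tubulins did not pass the test. Tubb3 had 4388 ± 305 counts in saline sham and 4298 ± 308 in saline HF-HI (p = 0.467). Tubb4a had 4698 ± 504 and 4626 ± 581, and Tubb4b had 3093 ± 217 and 3088 ± 256. None of the 4 alpha-tubulins passed, and their log2 differences lay between -0.03 and 0.00. Tuba1a, the most abundant of them, had a log2 difference of -0.03 (p = 0.490).

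**Figure D2:**
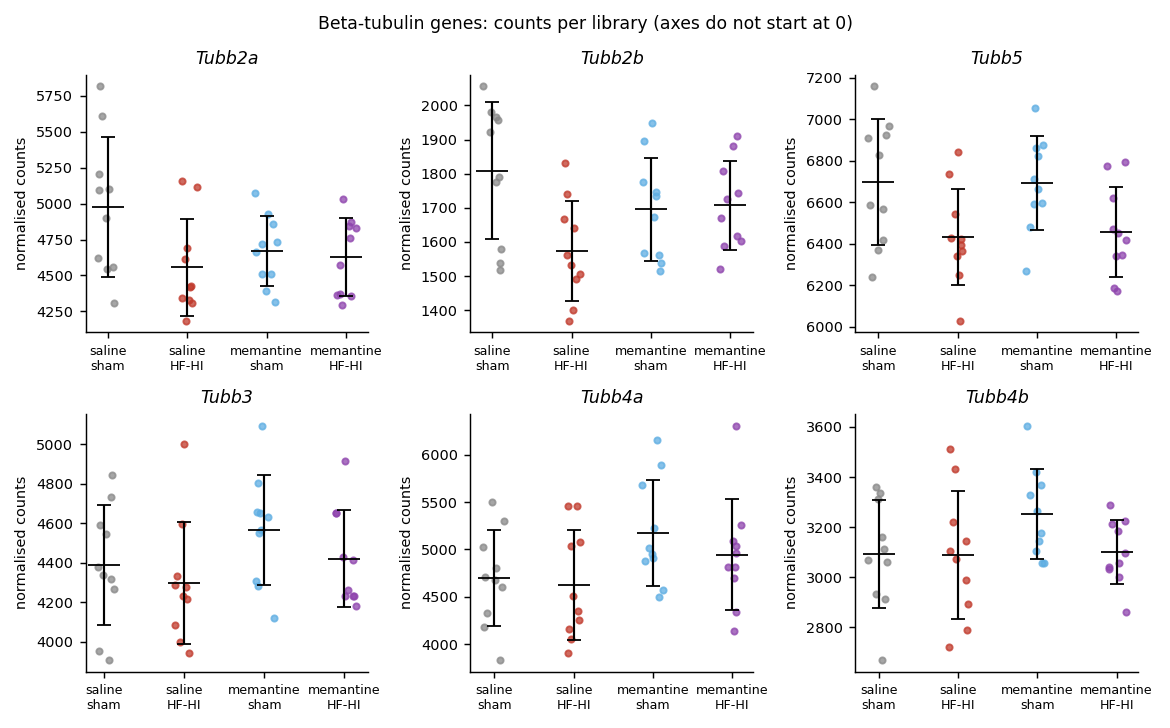
Normalised counts of the 6 beta-tubulin genes, 1 point per library in the 4 groups, with the mean and SD as bars. The saline HF-HI mean lies below that of saline sham for all 6 genes, of which Tubb2a, Tubb2b and Tubb5 passed the test. The points of all groups overlap, and no axis starts at 0.

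Among the kinesin motors, 14 of 16 gene sums had a positive difference in saline HF-HI, with a median log2 difference of 0.03, and 4 passed the test. Over all 5867 symbols, 2930 differences were positive and 2937 negative. Against the same saline sham libraries, memantine sham had 13 of 16 motor sums positive, with a median log2 difference of 0.04. In memantine HF-HI against memantine sham, 7 were positive and 9 negative, with a median of -0.01. Over all symbols, 2928 and 2883 differences were positive in these comparisons, in that order. Kif16b, which moves early endosomes, ran from 797 through 842 to 928 counts in saline sham and from 868 through 931 to 1010 in saline HF-HI. All 10 impact libraries were above the sham mean, although the ranges overlapped. Its mean was 9.86% higher (log2 difference 0.14 ± 0.04, p = 0.00107, adjusted p = 0.185, permutation p = 0.00065). Kif13a, a motor of recycling endosomes, ran from 974 through 1086 to 1190 counts in saline sham and from 1021 through 1170 to 1346 in saline HF-HI. It was 9.24% higher, with 9 of 10 libraries above the sham mean (p = 0.0121, adjusted p = 0.377, permutation p = 0.0288).

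The sum of the 3 Kif1b transcripts, a motor of mitochondria and vesicle precursors, went from 31113 ± 758 to 31916 ± 734 counts (log2 difference 0.04 ± 0.02, p = 0.0299), while no single Kif1b transcript passed. Kif3b, a subunit of the heterotrimeric kinesin-2 motor, was the only motor gene whose sum fell and passed. It ran from 1769 through 1889 to 1954 counts in saline sham and from 1712 through 1815 to 1932 in saline HF-HI. It fell by 3.68% (p = 0.0222, adjusted p = 0.446). The ranges overlapped, and the p was 0.0549 without saline HF-HI replicate 10. Its partner Kif3a had a summed log2 difference of 0.07 (p = 0.112). The abundant transport motors Kif5a, Kif5b, Kif5c and Kif1a did not pass, with summed log2 differences between 0.00 and 0.02.

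Kifbp had the smallest p of all members. It encodes KIF-binding protein, which holds kinesin motor domains away from the microtubule, and it lies at chr10:62558470-62579066. Its counts ran from 2121 through 2216 to 2338 in saline sham and from 2214 through 2341 to 2495 in saline HF-HI. In 9 of 10 impact libraries it was above the sham mean, with overlapping ranges. The mean was 6.27% higher (log2 difference 0.09 ± 0.02, p = 0.000284, adjusted p = 0.108, permutation p = 0.00118). When all transcripts were summed by symbol, the adjusted p of Kifbp over 5867 symbols was 0.0864. Klc1, Klc2 and Kifap3, the light chains and the kinesin-2 adaptor, did not pass as sums.

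Of the dynein genes, Dync1h1 alone passed, and by a small amount. It ran from 33731 through 34923 to 36061 counts in saline sham and from 34125 through 35956 to 36212 in saline HF-HI, a rise of 2.06% (p = 0.0445, adjusted p = 0.508) that quantile normalisation removed (p = 0.911). Leaving out any of 12 single libraries also took its p over 0.05, up to 0.0980 without saline sham replicate 3. No dynactin transcript passed. The 3 neurofilament genes had log2 differences of 0.04 to 0.05, and none passed.

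Map1b, which binds microtubules in growing and adult axons, was the microtubule-associated protein gene that passed. It ran from 41026 through 43044 to 45719 counts in saline sham and from 39941 through 41916 to 43023 in saline HF-HI. All 10 impact libraries were below the sham mean. Its mean fell by 3.55% (log2 difference -0.05 ± 0.02, p = 0.00830, adjusted p = 0.346, permutation p = 0.0128), with p = 0.128 after quantile normalisation. Map2 had a summed log2 difference of -0.05 (p = 0.0963) and did not pass, nor did Map1a, Map4 or Map6.

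**Figure D3:**
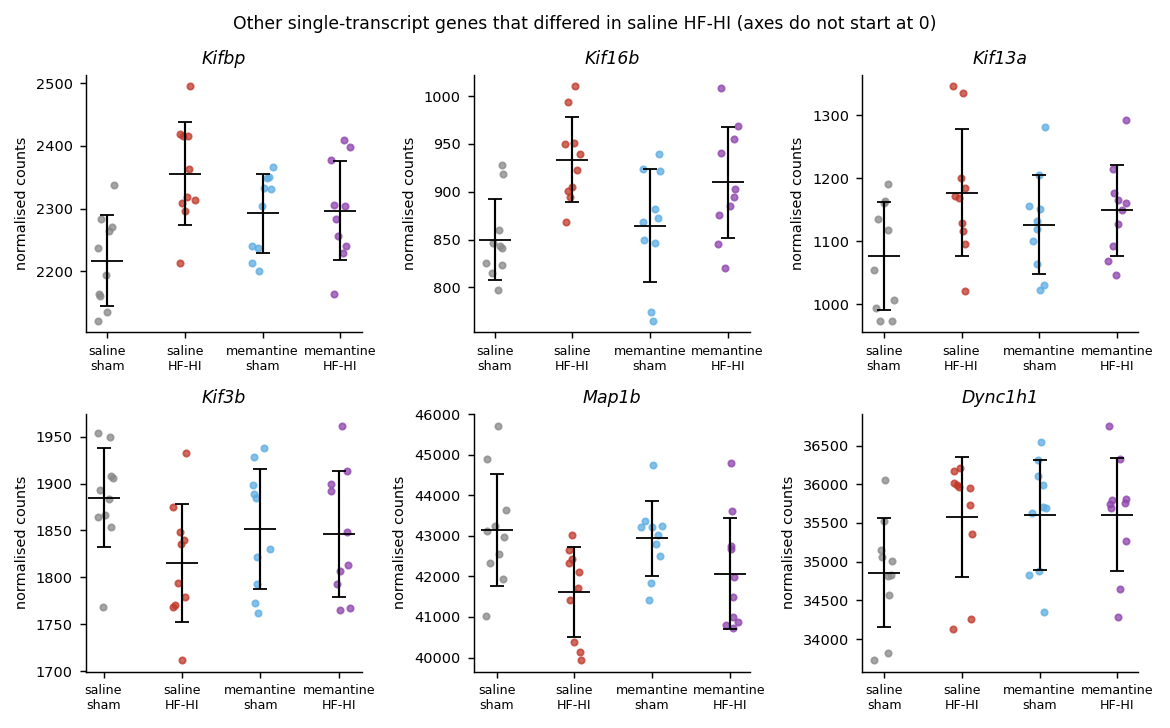
Normalised counts of Kifbp, Kif16b, Kif13a, Kif3b, Map1b and Dync1h1 in the 4 groups, 1 point per library with the mean and SD as bars, on axes that do not start at 0. In saline HF-HI the points shift upward for Kifbp, Kif16b and Kif13a and downward for Map1b and Kif3b, and every pair of groups overlaps.

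The remaining 3 transcripts called under saline belong to genes with more than 1 transcript in the table. Kif1a NM_008440 fell by 12.6% (p = 0.0261) while the sum of the 4 Kif1a transcripts went from 31570 ± 1418 to 31660 ± 2015 counts (p = 0.936). The Kif1a NM_008440 call was lost when any 1 of 6 libraries was left out, with p up to 0.0753 without saline HF-HI replicate 3. Kif21a NM_001109042, from a motor that restrains microtubule growth, was 53.3% higher (p = 0.0283) with p = 0.0654 for the sum of its 4 transcripts. Its p was 0.0560 with saline sham replicate 6 left out and 0.0584 with saline HF-HI replicate 6 left out. Kif3a NM_001290805 was 12.1% higher (p = 0.0121).

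Markers of another region moved in the same comparison. Of the 10 striatal marker transcripts in the table, 5 were called lower in saline HF-HI at an unadjusted p under 0.05, beside 4.95% of all transcripts. None was called higher, beside 4.58% of all. By sign, 9 differences were negative and 1 positive. The summed counts of the list ran from 19683 to 33605 in saline sham, from 19174 to 29505 in saline HF-HI, from 21411 to 32372 in memantine sham and from 17553 to 30388 in memantine HF-HI. The striatal markers Adora2a, Drd2 and Tac1 were not in the table. A striatal covariate was taken as the mean, over the 10 striatal marker transcripts, of each deposited value less its transcript's mean. With this covariate, 9 of the 12 member calls under saline held, including Tubb2a (p = 0.0132), Tubb2b (p = 0.00919), Kifbp (p = 0.000997) and Kif16b (p = 0.00485). Those of Tubb5 (p = 0.0822), Kif3b (p = 0.0545) and Dync1h1 (p = 0.137) did not. Of the 5 interneuron markers, Gad2, Sst and Slc32a1 were called lower and Pvalb higher at an unadjusted p under 0.05. Their summed counts were 13338 to 16824 in saline sham and 12544 to 15746 in saline HF-HI, and their part in the result was not tested.

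The other marker lists had at most 1 transcript called in this comparison, each of them higher. This was 1 of 6 for cortical excitatory neurons, 1 of 16 for oligodendrocytes, 1 of 10 for astrocytes, 1 of 5 for microglia and 1 of 2 for endothelial cells, and 0 of 2 for both hippocampus and thalamus.

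Impact under memantine was compared next, between groups that are not in the saline comparison. Both comparisons come from the same fit over all 4 groups and share its estimate of variance, so their p-values are not fully independent. Here 4 of 79 member transcripts passed, 1 higher and 3 lower, which is 5.06% against 4.61% of all transcripts tested, a share near the background. The smallest adjusted p was 0.967. Tubb5 was the only transcript called in both impact comparisons. It ran from 6268 through 6686 to 7053 counts in memantine sham and from 6171 through 6433 to 6794 in memantine HF-HI. It fell by 3.52% (p = 0.0417, adjusted p = 0.967, permutation p = 0.0291), with 8 of 10 libraries below the memantine sham mean and overlapping ranges. It was also the only gene of 50 whose sum passed, beside 4.36% of all symbols, and 11 single libraries could each be left out to lose the call, with p up to 0.0900 without memantine sham replicate 4. The Tubb5 call was also lost with quantile normalisation (p = 0.0854), with median centring (p = 0.0691) and with the striatal covariate (p = 0.0540).

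Of the 6 beta-tubulins, 5 had a negative difference under memantine, beside 3450 of 6831 transcripts. Tubb2a and Tubb2b did not pass under memantine. Tubb2b ran from 1514 through 1704 to 1948 counts in memantine sham and from 1522 through 1698 to 1911 in memantine HF-HI, and Tubb2a had 4671 ± 241 and 4629 ± 269 counts. Kifbp had 2292 ± 63.2 and 2297 ± 79.2 counts. Kif16b, at 864 ± 59.1 and 910 ± 58.3 counts, had a log2 difference of 0.07 (p = 0.0591).

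The other calls under memantine were single transcripts of multi-transcript genes. Map1a NM_001173506 fell by 18.1% (p = 0.0152), Dctn1 NM_007835 fell by 47.5% (p = 0.0371, permutation p = 0.0673) and Map4 NM_001205332 was 26.3% higher (p = 0.0386). Counts of Dctn1 NM_007835 ran from 469 to 3339 in memantine sham and from 311 to 2935 in memantine HF-HI. Summed over all transcripts, Map1a had p = 0.146, Dctn1, the large dynactin subunit that binds the microtubule, had p = 0.263, and Map4 had p = 0.444. Leaving out 1 library ended the Dctn1 call for 13 libraries, with p up to 0.0870 without memantine sham replicate 10, and the Map4 call for 11, with p up to 0.115 without memantine HF-HI replicate 2. With the striatal covariate the p was 0.0505 for this Dctn1 transcript and 0.0523 for that of Map4. In this comparison no striatal marker transcript passed.

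**Figure D4:**
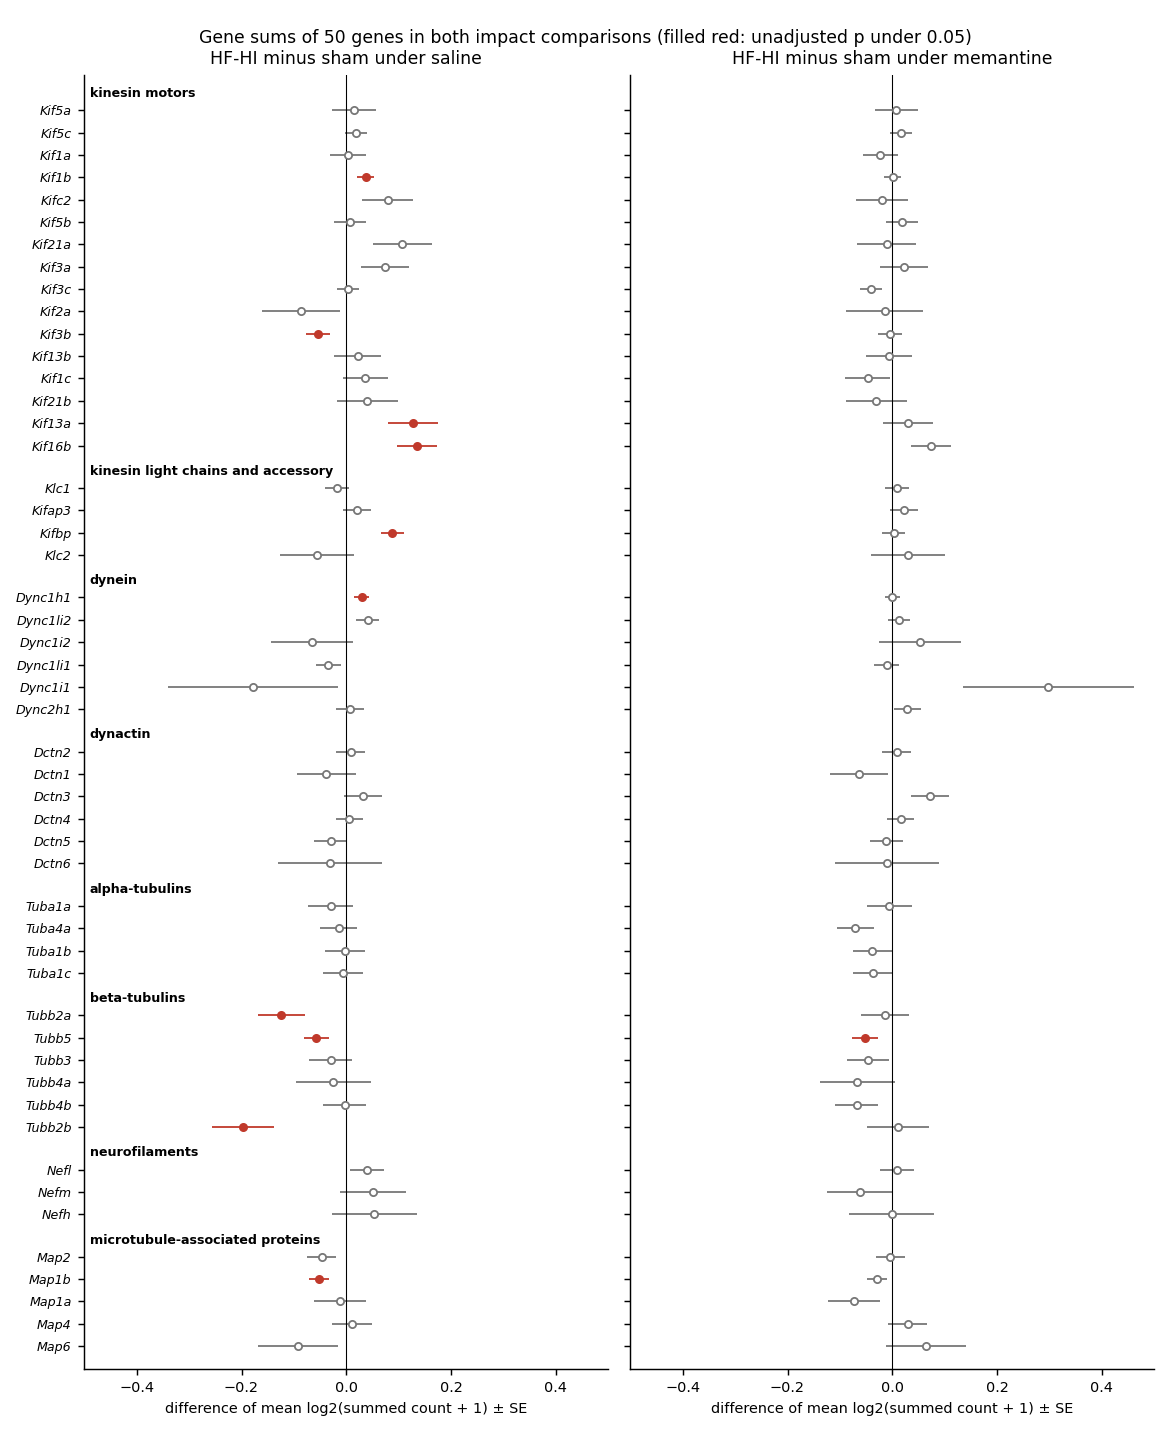
Difference of mean log2(summed count + 1) with its SE for all 50 genes by class, HF-HI minus sham, under saline on the left and memantine on the right, with filled red points at an unadjusted p under 0.05. On the left 10 gene sums are filled, including Tubb2a, Tubb2b and Tubb5 to the left of 0, and on the right only Tubb5 is.

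Whether the effect of impact differed between saline and memantine was asked by the interaction term. It was called for 3 of 79 transcripts, 3.80% against 3.73% of all, a share near the background, and the smallest adjusted p among members was 0.999. Kifbp had an interaction of -0.09 ± 0.03 on the log2 count scale (p = 0.00914), with impact differences of 0.09 under saline and 0.00 under memantine. Tubb2b had an interaction of 0.21 ± 0.08 (p = 0.0182), from differences of -0.20 and 0.01. Both calls held with each library left out in turn. Dync1i1, a neuron-enriched dynein intermediate chain, had 0.48 ± 0.23 (p = 0.0413), from differences of -0.18 and 0.30, and its call was lost when any 1 of 20 libraries was left out, with p up to 0.0781 without saline sham replicate 8. Tubb2a had 0.11 (p = 0.0933 as a sum) and did not pass.

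Memantine HF-HI was then set against saline HF-HI. These libraries also enter the comparisons above. Of 79 transcripts, 5 passed, 4 higher and 1 lower, which is 6.33% against 3.91% of all transcripts. No member had an adjusted p under 0.1. Dync1i1 ran from 592 through 782 to 1067 counts in saline HF-HI and from 793 through 1171 to 1322 in memantine HF-HI. In 9 of 10 memantine libraries it was above the saline HF-HI mean. The mean was 34.9% higher (log2 difference 0.43 ± 0.16, p = 0.0111, permutation p = 0.00257), although saline sham alone spread from 545 to 1558 counts.

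Map6 encodes a protein that makes microtubules stable to cold. Its transcript NM_001048167 ran from 515 through 595 to 689 counts in saline HF-HI and from 546 through 673 to 800 in memantine HF-HI. The mean was 12.6% higher (p = 0.0273, permutation p = 0.0175), with 8 of 10 libraries above the saline HF-HI mean, and the sum of both Map6 transcripts also passed (log2 difference 0.16 ± 0.08, p = 0.0416). Without memantine HF-HI replicate 2 the p of NM_001048167 was 0.0664, and 4 single libraries could end the call. The other 3 calls, Kif3a NM_008443, Kif3a NM_001290805 and Kif1a NM_008440, had sums with p = 0.903 for Kif3a and 0.471 for Kif1a. The calls of Kif3a NM_001290805 and Kif1a NM_008440 were lost when any 1 of 9 and of 8 libraries was left out, with p up to 0.0845 for Kif3a when memantine HF-HI replicate 3 was dropped and up to 0.105 for Kif1a when it was saline HF-HI replicate 3, and with the striatal covariate (p = 0.0656 and 0.0526).

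Memantine against saline was also compared in the sham groups, which shares the saline sham libraries with the saline impact comparison. Of 79 transcripts, 6 passed, 4 higher and 2 lower, which is 7.59% against 7.51% of all, a share near the background, and the smallest adjusted p was 0.634. Dctn6, a subunit of the dynactin pointed end, ran from 525 through 613 to 683 counts in saline sham and from 395 through 540 to 597 in memantine sham. All 10 memantine sham libraries were below the saline sham mean. It fell by 13.3% (p = 0.0373, adjusted p = 0.636, permutation p = 0.00269), with p up to 0.0911 without memantine sham replicate 9, and 5 single libraries could end the call. It was also lost with library weights (p = 0.0686), with the replicate block (p = 0.0542) and with quantile normalisation (p = 0.0508).

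Kif1c, a motor of vesicles and mRNA, was 6.51% higher in memantine sham (p = 0.0415), Kifbp 3.41% higher (p = 0.0337) and Dync1h1 2.14% higher (p = 0.0370). The Kif1c call was lost when any 1 of 10 libraries was left out, with p up to 0.0907 without memantine sham replicate 5. For Kifbp this held for 9 libraries (up to 0.0707, saline sham replicate 5) and for Dync1h1 for 7 (up to 0.0832, saline sham replicate 3). Quantile normalisation took Kifbp to p = 0.0673 and Dync1h1 to 0.361, median centring took them to 0.0561 and 0.0537, and library weights took Kif1c to 0.0603. The sums of Kif1b (log2 difference 0.04, p = 0.0155) and Map1a (0.12 ± 0.05, p = 0.0243) also passed. Dctn1 NM_007835 and Dctn2 NM_027151 passed only as single transcripts, with p = 0.632 and 0.972 for the sums of their genes, and permutation p = 0.0651 and 0.105. Leaving out 1 library ended the Dctn1 call for 5 libraries and the Dctn2 call for 6, with p up to 0.0697 for Dctn1 (memantine sham replicate 10) and up to 0.123 for Dctn2 (memantine sham replicate 5).

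The transcripts of 1 gene varied far more than their sum. The 15 genes with more than 1 transcript hold 44 of the 79 members, or 55.7%, against 24.6% of all transcripts in the table. The median within-group CV was 21.9% for these 44 transcripts and 5.88% for the 15 sums, beside 5.78% for the 35 genes with 1 transcript. Of the calls above in multi-transcript genes, 3 under saline, 3 under memantine and 2 in sham had no call for the gene's sum, and 1 of 4 in the HF-HI groups did.

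The Kif3a and Kif1a transcripts differ by short coding insertions, which shows how little sequence divides their reads. NM_008443 of Kif3a carries 9 bases (chr11:53590717-53590725, plus strand) that NM_001290805 lacks. NM_001294150 of Kif1a carries 27 bases (chr1:93065552-93065578, minus strand) that NM_008440 lacks. Both insertions are coding, add 3 and 9 codons, and are printed in capitals with 15 bases of each flank in the transcript.
Kif3a: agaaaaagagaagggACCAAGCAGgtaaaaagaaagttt
Kif1a: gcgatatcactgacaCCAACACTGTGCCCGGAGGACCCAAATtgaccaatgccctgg

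The share of Kif3a counts given to NM_008443 ran from 5.41% through 19.1% to 30.7% in saline sham, from 0.427% through 11.9% to 25.4% in saline HF-HI, from 10.5% through 25.2% to 35.3% in memantine sham and from 11.5% through 21.7% to 26.8% in memantine HF-HI. These ranges overlap in every pair of groups. For NM_008440 the share of Kif1a counts ran from 12.5% to 17.9% in saline sham and from 9.19% to 18.6% in saline HF-HI. Dctn1 NM_007835 took from 7.84% to 53.5% of its gene in saline sham and from 8.51% to 63.5% in memantine sham. The deposited values are estimates in which reads that fit several transcripts were divided, so a shift in such a share cannot be told apart from a different division of the same reads.

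Deviations of the pair of most abundant transcripts from their group means were correlated over the 40 libraries in each of the 15 genes. The correlation was negative in 12 of them, and in 9 of these 12 the adjusted permutation p was under 0.1. Reads that fit several transcripts were divided between them, which can itself give a negative correlation. The permutation test cannot tell the transcripts' own levels from that division. Kif1b had r = -0.924 and rho = -0.932, both with a permutation p of 1e-05, the smallest the resamples can give, and adjusted p of 2.5e-05 and 3.75e-05. Its r was -0.910 without the 2 libraries farthest from the median and between -0.942 and -0.904 within the groups. Kif2a, a microtubule depolymerase, had r = -0.806 and rho = -0.761, and Kif3a had r = -0.620 and rho = -0.664, with the same permutation p. Map1a had r = -0.759 and rho = -0.608 (permutation p = 1e-05 and 4e-05), but within memantine HF-HI its r was 0.47. Map6 went the other way, with r = 0.411 and rho = 0.474 (permutation p = 0.00808 and 0.00228).

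**Figure D5:**
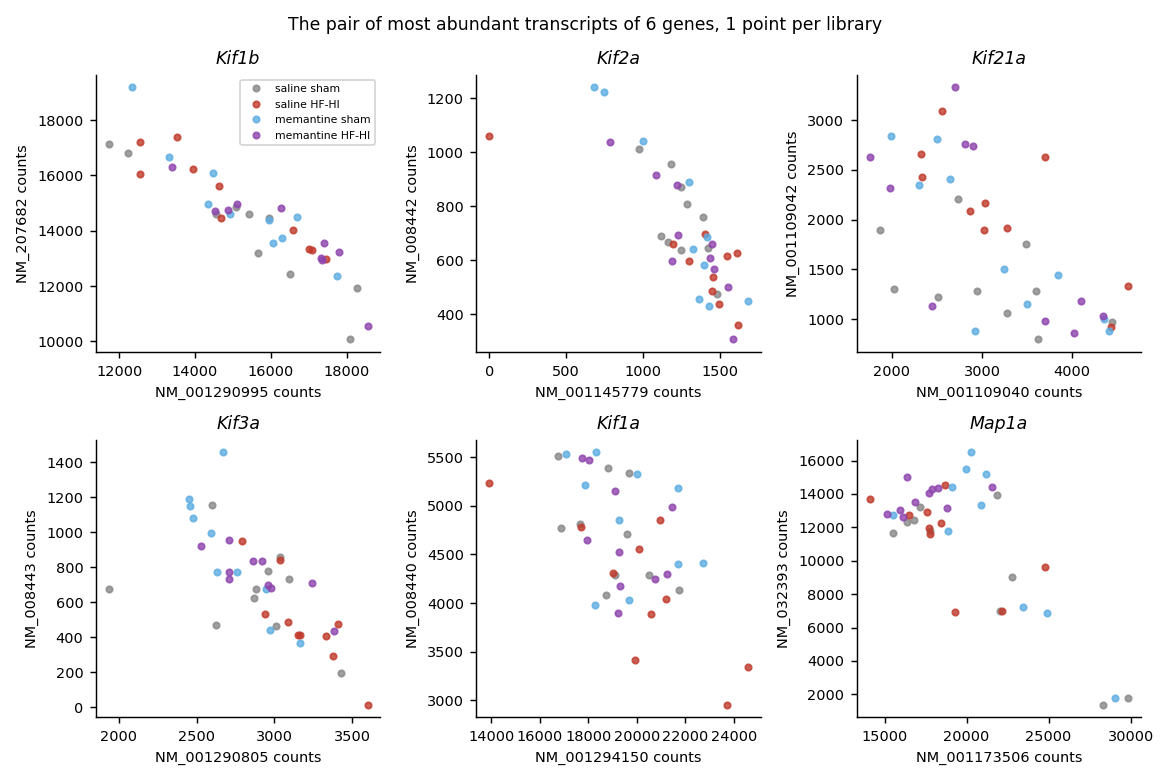
Normalised counts of the pair of most abundant transcripts of Kif1b, Kif2a, Kif21a, Kif3a, Kif1a and Map1a, 1 point per library and 1 colour per group. Libraries with more of 1 transcript tend to have less of the other, except for Map1a within memantine HF-HI (r = 0.47). The clearest is Kif1b, with r = -0.924 for deviations from group means, and the 4 groups are intermixed.

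A wider list of 78 genes of transport adaptors, tubulin folding and modification, and plus-end proteins had 64 symbols and 105 transcripts in the table. At an unadjusted p under 0.05, 3 of these transcripts were called higher and 3 lower in saline HF-HI. Under memantine 2 were called higher and 3 lower. Between the HF-HI groups 1 was called higher and 4 lower, and between the sham groups 8 higher and 3 lower. These are 5.71%, 4.76%, 4.76% and 10.5% of the list, beside 9.53%, 4.61%, 3.91% and 7.51% of all transcripts. Stmn1, the microtubule-destabilising protein stathmin, went from 5817 ± 371 counts in saline sham to 6163 ± 329 in saline HF-HI (log2 difference 0.08 ± 0.03, p = 0.0132, adjusted p = 0.389). It was also higher in memantine sham than in saline sham, at 6147 ± 223 counts (log2 difference 0.08, p = 0.0166, adjusted p = 0.604). Hap1, an adaptor of dynactin and kinesin, went from 1185 ± 483 to 890 ± 185 counts (p = 0.0393, adjusted p = 0.491), a call lost in the fit by symbol (p = 0.0507). Trak2, a mitochondrial adaptor, fell by 0.06 on the log2 scale under memantine (p = 0.0189). Ttl, the tubulin tyrosine ligase, had 1509 ± 62.4 counts in the saline mice with impact and 1420 ± 97.0 in the memantine mice with impact (p = 0.0288).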

How the data were processed

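RNA-seq was deposited by the authors as 1 table of log2 values made by the variance-stabilising transformation of DESeq2, with 6831 RefSeq transcripts and 40 libraries. Per the study's methods reads were aligned with STAR and counted with eXpress on mm10, while the submitters' processing notes name HISAT2 and StringTie, with no versions or roles. How the table was limited to abundant transcripts is not given in the sources used here. The transformation was inverted from its floor (10.36) to normalised counts. Below 5000 counts, 100.0% of the values were whole reads within 0.05 after division by a size factor (0.859 to 1.14), and libraries held 13322396 to 17529649 reads in the table. Counting error alone gives a CV of 4.27% at the lowest mean count of 549. Symbols came from mm10 RefSeq (6811) and GENCODE (14), and sequences, lengths and coordinates from GENCODE vM21.

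limma 3.58.1 in R 4.3.3 was run on the deposited log2 values of all 4 groups (empirical Bayes with a trend) for 5 contrasts. The count scale gave log2(count + 1) differences. Permutation tests were two-sided with 100000 resamples. The script was tested on simulated data. Same-numbered libraries of different groups had a mean correlation of 0.0021 over 60 pairs, so the numbers did not pair them. Named were every member at an unadjusted p under 0.05, the most abundant genes of each class, preset anchor genes and genes with 2 or more transcripts. Members, lists and tests were chosen with earlier results of these data known. Alternatives were other scales, normalisations, filters, weights and covariates, and each library left out.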

Additional observations from a re-analysis of the deposited data

Results flagged for a closer look

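The interaction term of impact and drug passed at an unadjusted p under 0.05 for 3 of 79 transcripts. This is 3.80% against 3.73% of all transcripts, a share near the background. On the log2 count scale the term was -0.0852 for Kifbp (p = 0.00914), 0.208 for Tubb2b (p = 0.0182) and 0.476 for Dync1i1 (p = 0.0413). The adjusted p was 0.999 for each, and the Dync1i1 call was lost when any 1 of 20 libraries was left out.

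In the groups behind the named transcripts, 2 libraries stood apart from the other 9 of their group, where chance alone sets about 1 in 20 groups apart and 54 were looked at. Dctn1 NM_007835 had 2769 normalised counts in saline sham replicate 3, with the next library at 614. Kif3a NM_008443 had 438 in memantine HF-HI replicate 10, with the next at 684.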

How the results depend on the processing

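The number of members called was within 1.5 times its value in most alternatives for saline impact, and moved more where few were called. Under saline impact 12 became 5 at an unadjusted p under 0.01. Under memantine impact 4 became 1 when summed by symbol or with the striatal covariate, 7 with quantile normalisation, 2 with a mean count of at least 1000, 12 with library weights and 0 at p under 0.01. Between the HF-HI groups 5 became 2 by symbol, 2 with a mean count of at least 1000 and 0 at p under 0.01. Between the sham groups 6 became 0 at p under 0.01, and the interaction went from 3 to 1. With each library left out the saline count ran from 9 to 17. The memantine count ran from 1 to 7, with 1 without memantine HF-HI replicate 2, with 2 without memantine sham replicate 2 or 3 or memantine HF-HI replicate 1, and with 7 without memantine sham replicate 5 or 9 or saline sham replicate 6. Between the HF-HI groups it ran from 3 (without saline HF-HI replicate 9 or memantine HF-HI replicate 7) to 7. Between the sham groups it ran from 1 (without saline sham replicate 10) to 10 (without memantine sham replicate 9), with 2 without memantine sham replicate 5, and the interaction ran from 2 to 5 (without saline sham replicate 3). Of 1200 refits of the 30 named calls with 1 library left out, 142 lost the call and 0 turned its direction. The fit with a replicate block called 13, 4, 5, 6 and 3, and the numbers did not pair the libraries. The sign turned for Kif1a NM_008440 under saline when summed (0.00275), Dync1h1 under saline with quantile normalisation (-0.00188), and, when summed, Kif3a NM_008443 between the HF-HI groups (-0.00559) and Dctn2 NM_027151 in sham (0.000984). The cause was not tested.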
